A study of Mus musculus with 4 samples.

Results

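Low-RNA macrophage barcodes are droplets of a cardiac phagocyte sort that carry C1q transcripts but few transcripts in all. They were chosen by measured values: a share of mitochondrially encoded (mt-) genes under 10%, over 500 and under 7000 genes, 1000 to 5000 UMIs (unique molecular identifiers, each standing for 1 captured transcript), and C1qa, C1qb and C1qc together at 5 or more UMIs per 10000. No more than 1 of the endothelial genes Cdh5, Flt1, Kdr and Ptprb, the B cell gene Cd79a and the fibroblast gene Col1a1 was allowed a UMI. The rule kept 2590 of 27968 barcodes in the files, or of the 17312 that passed the study's limits on mt- share, genes and UMIs. They were set against 8656 barcodes of 10000 to under 30000 UMIs chosen by the same rule in the same 4 libraries, called high-UMI barcodes here. Total UMIs, the mt- share, the C1q genes and the 6 exclusion genes set the choice, so their values are given as a description and without a test.

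The 4 groups came from adult mice of mixed sex, 5 per group, pooled before loading, with 1 library each. The labels used here name no strain. The groups were carboplatin followed by AngII/PE, PBS followed by AngII/PE, carboplatin followed by saline, and PBS followed by saline, and all values for the 4 libraries below are in this order. Carboplatin, a platinum drug that crosslinks DNA, was given by intraperitoneal injection at 45 mg/kg, 2 times a week for 2 weeks, and PBS was its vehicle control. After 4 weeks of recovery a minipump delivered for 7 days either AngII (angiotensin II, a vasoconstrictor peptide) at 1.5 mg/kg per day with PE at 50 mg/kg per day, or saline. All groups thus carried injections, recovery and a pump. Cells were sorted from digested hearts as CD64+, CD45+, CD11b+, Ly6G negative and Ly6C low, and 10000 cells were loaded per library. The question of the series, from its title, is how DNA-damaging chemotherapy changes the composition and function of cardiac-resident macrophages.

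As background, C1q is the recognition unit that starts the classical complement pathway, and tissue macrophages are its main source in the body. RNA inside a nucleus is rich in unspliced transcripts, which hold the introns of long genes, and in Malat1, a long noncoding RNA that stays in nuclear speckles. Mature mRNAs of ribosomal proteins, ferritin and actin sit in the cytosol, mRNAs of secreted and lysosomal proteins are translated at the endoplasmic reticulum, and mt- transcripts are made and kept inside mitochondria.

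The files held 8012, 5997, 7049 and 6910 barcodes with 62943457 to 95752612 UMIs per library. The study states 38066 barcodes before and 17438 after its own filter, beside the 27968 and 17312 found here. No doublets were removed and no doublet caller was run. Any 2 libraries shared 9 to 17 barcode sequences, of which 1 or 2 were low-RNA barcodes in 2 of the 6 pairs of libraries and 0 in the other 4. The study removed clusters that it judged contaminating or of poor quality, and those clusters were not applied here. With 1 pooled library per group, treatments have no replicate, so contrasts between treatments carry counting intervals only. Contrasts between low-RNA and high-UMI barcodes rest on 4 libraries, and their p-values measure the spread between those libraries.

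The low-RNA barcodes numbered 776, 558, 575 and 681, against 3290, 1976, 1436 and 1954 high-UMI barcodes. They made up 13.7% (exact 95% interval 12.8 to 14.6), 14.5% (13.4 to 15.6), 16.5% (15.3 to 17.8) and 15.8% (14.7 to 16.9) of the barcodes that passed in the order of libraries above. Both saline libraries lay above both AngII/PE libraries, while the intervals of the PBS libraries overlapped. As a share of low-RNA and high-UMI barcodes together they were 19.1%, 22%, 28.6% and 25.8%, again higher in the saline libraries. The order depends on the rule: with C1q held to 20 per 10000 the shares of passing barcodes were 12%, 10.03%, 8.18% and 9.21%, and without the mt- limit 25.8%, 31.8%, 24.6% and 21.1%, both higher in the AngII/PE libraries. Of all barcodes in the window of 1000 to 5000 UMIs they were 91.5%, 83.9%, 65.7% and 68.9%. The rest of that window fell short on C1q in 25, 84, 184 and 193 barcodes or held more than 1 exclusion gene in 47, 23, 116 and 114. In bulk sums such as these, fewer transcripts per cell and fewer captured transcripts cannot be told apart.

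By construction the low-RNA barcodes were shallow, with a median of 3258, 3336, 3090 and 3101 UMIs and 1681, 1702, 1543 and 1532 genes. The high-UMI barcodes had a median of 15537, 15914, 16873 and 14766 UMIs and 4246, 4281, 4301 and 4056 genes. Median C1q was 58.8, 32.1, 19.9 and 23.3 UMIs per 10000 in low-RNA barcodes, against 166, 141, 121 and 120.3 in high-UMI barcodes, so each library's low-RNA median was the lower one. At 1000 UMIs the rule asks for a single C1q UMI.

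The label was checked against 15 macrophage genes outside the rule. At least 3 of the 15 had a UMI in 97.2%, 96.4%, 89.9% and 91.9% of low-RNA barcodes (2435 of 2590), and 31 barcodes had none. Thinned to 1000 UMIs each, 91.1%, 88.2%, 72.3% and 81.1% of low-RNA barcodes held 3 or more, against 2.04%, 6.52%, 3.65% and 2.90% of endothelial barcodes of 1000 to 5000 UMIs, which were chosen to hold more endothelial than C1q UMIs. Their summed level was 9746, 8403, 6272 and 7451 CPM (UMIs per gene scaled to the same total in each library and class) in low-RNA barcodes, against 12994, 11867, 9997 and 11190 CPM in high-UMI barcodes, which is lower in each library, and against 933, 876, 670 and 722 CPM in those shallow endothelial barcodes. Csf1r, the receptor for the macrophage growth factor CSF-1, had 1056, 835, 612 and 759 CPM in low-RNA barcodes, against 993, 962, 814 and 873 CPM in high-UMI barcodes, higher in low-RNA barcodes of the first library and lower in the other three. All 15 markers had a UMI in the low-RNA sum of every library, as did 12 of 12 resident-macrophage markers in 3 libraries and 11 in carboplatin AngII/PE, where Timd4 was at 0. These markers fit the label of the class.

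Values just inside and just outside each limit were close for UMIs and mt- share. Barcodes of 4500 to 5000 UMIs held 22.3%, 24.4%, 29.8% and 28.8% of their UMIs in genes of 100 kb and over, against 21.1%, 23.8%, 30.1% and 29.2% at over 5000 and up to 5500 UMIs. At the lower UMI limit, the 33, 17, 48 and 52 barcodes just above 1000 UMIs held 18%, 26.6%, 23.3% and 32.9%, against 17.2%, 16.6%, 22.7% and 30.9% in the 40, 20, 62 and 45 just below it. PBS AngII/PE alone differed there by several percentage points. Barcodes with an mt- share of 9 to 10% held 23.1%, 24.5%, 30.4% and 31.4% in such genes, against 24.2%, 24.7%, 28.3% and 30.2% at 10 to 11%. Barcodes with C1q at 5 to 9.9 per 10000 had 4527, 5645, 4667 and 4724 CPM of the 15 macrophage markers, against 4039, 2613, 2685 and 3668 CPM in those under 5. The mt- limit cut deep into this class, because 1041, 1163, 548 and 356 barcodes met every other part of the rule but exceeded it. They were 57.3%, 67.6%, 48.8% and 34.3% of the barcodes that met the rest of the rule, against 0.394%, 1.20%, 5.28% and 1.21% among high-UMI barcodes.

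The make-up of the RNA differed between the classes in every library. Genes spanning 100 kb and over took 22.9%, 25.4%, 31.9% and 32.0% of UMIs in low-RNA barcodes, against 13.3%, 14.0%, 16.8% and 17.5% in high-UMI barcodes, a ratio of 1.72, 1.81, 1.9 and 1.82. Every low-RNA value lay above every high-UMI value. Genes of 300 kb and over took 5.41%, 6.06%, 8.54% and 8.6%, against 2.88%, 3.08%, 4.04% and 4.27%. Genes under 10 kb ran the other way, at 28.2%, 25.4%, 20.8% and 20.8% in low-RNA barcodes, against 43.3%, 43.0%, 40.1% and 39.6%. Ribosomal protein genes took 5.14%, 4.64%, 2.90% and 2.61% in low-RNA barcodes, against 11.5%, 12.2%, 10.1% and 9.23% in high-UMI barcodes, and no value of one class reached the other. Long noncoding genes took 6.19%, 7.47%, 8.44% and 8.38%, against 2.68%, 3.14%, 5.2% and 4.86%.

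Most of the difference fell between 5000 and 10000 UMIs, with no steady gradient below 5000 and little change above 10000. In bins from 10000 to under 30000 UMIs, the share in genes of 100 kb and over ran from 13.3% to 17.6% over all libraries. It was 16.6%, 19.6%, 24.9% and 22.2% at over 5000 and under 10000 UMIs, and between 21.4% and 33.8% in the bins of 1000 to 5000. Within low-RNA barcodes UMIs and this share had a Spearman rho of -0.03, -0.03, 0.07 and -0.26. Ribosomal protein genes took 8.74%, 8.03%, 5.32% and 5.76% at over 5000 and under 10000 UMIs, and 8.72% to 12.5% above. Barcodes of 1000 to under 2000 UMIs (133, 92, 154 and 161) stood apart from the other low-RNA barcodes in heart muscle transcripts. The 12 heart muscle genes summed to 4410, 2052, 6129 and 3070 CPM there, against 256 to 1199 CPM in the bins of 2000 to 5000 UMIs.

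Single barcodes spread widely within the class. The share in genes of 100 kb and over had a median of 23.5% (quartiles 18.02 and 28.3), 26% (21.02 and 31), 34.3% (26.5 and 38.2) and 34.5% (28.2 and 38.9) over low-RNA barcodes. Over high-UMI barcodes it was 13.03% (10.97 and 15.3), 13.6% (11.6 and 16.2), 16.5% (14.7 and 18.6) and 17.3% (15.5 and 19.3), so the lower low-RNA quartile lay above the upper high-UMI quartile in each library. Malat1 had a median of 3.11%, 3.27%, 3.6% and 3.97% over low-RNA barcodes, against 1.14%, 1.32%, 2.01% and 2.13% over high-UMI barcodes. Within low-RNA barcodes Malat1 share and UMIs had a Spearman rho of 0.10, 0.08, 0.42 and 0.40, against -0.13, -0.18, -0.26 and -0.27 within high-UMI barcodes. Malat1 and long-gene shares had 0.21, -0.08, -0.06 and -0.12 within low-RNA barcodes, against 0.49, 0.46, 0.33 and 0.19 within high-UMI barcodes. These rho values describe barcodes of 1 library that share its free RNA and chemistry.

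**Figure D1:**
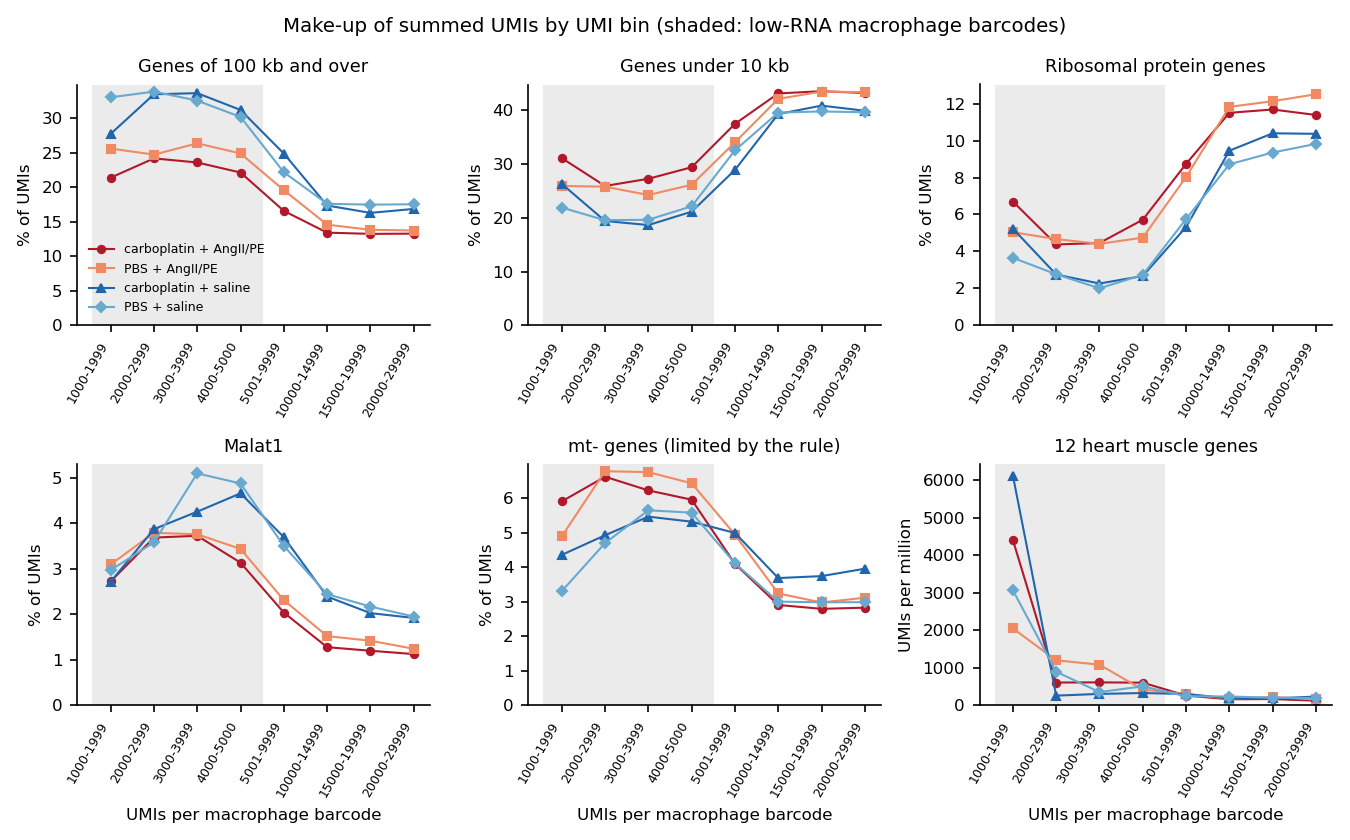
Share of summed UMIs (percent; heart muscle genes in CPM) against the UMI bin of macrophage barcodes, 1 line per library, with the low-RNA bins shaded. Genes of 100 kb and over fall to between 13.3% and 17.6% above 10000 UMIs, and the 12 heart muscle genes peak in the bin that starts at 1000 UMIs.

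Gene by gene, UMIs were summed per library and class and compared with edgeR's quasi-likelihood test, with the library as a block. Of 13781 genes tested, 3469 were higher in low-RNA barcodes (25.2%) and 4522 were lower (32.8%) at an adjusted p under 0.05, and the median log2 ratio of all genes was -0.03. The split between higher and lower depends on the scaling. The CPM values printed here divide by all UMIs, whereas the fit's TMM factors moved log2 ratios down by 0.37 to 0.49 per library (mean 0.425). With plain CPM, 6236 genes were higher and 2755 lower, and the median was 0.39. With RLE size factors the counts were 4200 and 4039, and with DESeq2 3786 and 3687. A log2 ratio below is the fit's value unless plain CPM is named, so a gene with equal CPM in both classes has a negative one.

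Gene length ordered the ratios. Among 3661 genes under 10 kb the median log2 ratio was -0.69, and 295 (8.06%) were higher and 1977 (54.0%) lower. The median was -0.27 over 4441 genes of 10 to 30 kb, 0.20 over 3882 genes of 30 to 100 kb and 0.48 over 1444 genes of 100 to 300 kb, where 1014 (70.2%) were higher and 44 lower. Among 341 genes of 300 kb and over it was 0.64, with 270 (79.2%) higher and 1 lower. Each library showed the distance between the ends on its own, with medians of -0.64, -0.69, -0.77 and -0.77 under 10 kb and 0.41, 0.44, 0.75 and 0.63 at 300 kb and over. The distance between genes of 100 kb and over and genes under 10 kb was 1.21 in the fit and 0.94, 1.08, 1.34 and 1.28 in the libraries (SD 0.183, n = 4). It was 1.20 with plain CPM, where short genes had a median of -0.26 and long genes one of 0.94. Leaving the ribosomal protein genes out of the protein-coding genes kept it, with -0.91 over 2758 short genes and 0.64 over 332 genes of 300 kb and over.

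**Figure D2:**
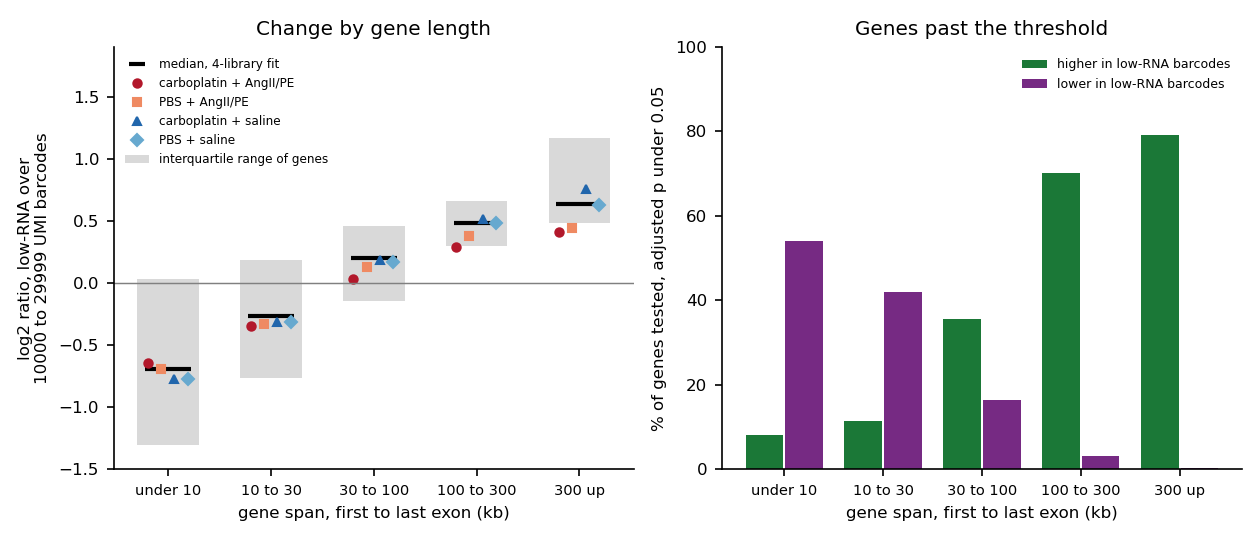
Left, log2 ratio of low-RNA over high-UMI barcodes by gene span in kb, with black bars for the median of the 4-library fit, grey boxes for the interquartile range of genes and points for the median in each library. Right, the percent of genes in each span class past an adjusted p of 0.05; the higher share climbs to 79.2% at 300 kb and over while the lower share drops to 1 gene.

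Span was split into its intronic and exonic parts over 6657 genes averaging 20 CPM or more, as a description across genes that share libraries and are not replicates. Spearman's rho of the log2 ratio was 0.77 with span, 0.74 with intronic length, 0.66 with exonic length and 0.05 with mean CPM. Given exonic length, rho with intronic length was 0.58, and given intronic length, rho with exonic length was 0.40. The median was -1.46 over 701 genes with at most 6.79 kb of introns and 2.77 kb of exons. It was 0.50 over 631 genes with at least 78.5 kb of introns and 8.59 kb of exons. With long introns and short exons it was 0.24 (41 genes), and with short introns and long exons -0.31 (26 genes). The 46 genes of a single exon had a median of -0.95, with 42 lower and 1 higher. By annotated type the median was 0.44 over 599 antisense genes, 0.26 over 506 lincRNAs and 0.64 over 91 sense-intronic genes, against -0.08 over 12223 protein-coding genes. Genes inside or opposite another gene can share its reads, so those values are uncertain.

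Of the 12 most abundant protein-coding genes of 100 kb and over, 10 were higher in low-RNA barcodes and 2 did not pass. Arhgap15, a GTPase-activating protein for Rac (mm10, chromosome 2, 43748824 to 44395953), had 1753, 1977, 2302 and 2001 CPM in low-RNA barcodes, against 784, 793, 1036 and 922 CPM in high-UMI barcodes. No low-RNA value fell within the high-UMI range, and the log2 ratio was 0.76 (SE 0.09, edgeR adjusted p = 4.5e-06). Pid1, an adaptor that binds the lipoprotein receptor LRP1, had 2919.6, 3478, 5058 and 5614 CPM in low-RNA barcodes, against 1672, 1882, 2551 and 2766 CPM in high-UMI barcodes (log2 ratio 0.50, SE 0.11, edgeR adjusted p = 0.0013). Zeb2, a transcription factor that maintains tissue macrophage identity, had 3629.7, 3672, 4128 and 3942 CPM in low-RNA barcodes, against 1998.7, 1939, 2151 and 2172 CPM in high-UMI barcodes, with all 4 low-RNA values above all high-UMI values (log2 ratio 0.47, SE 0.11, edgeR adjusted p = 0.0013, but 0.26 and an edgeR adjusted p of 0.15 for members under 2500 UMIs). Rbpj, the DNA-binding partner of Notch, had 667, 778, 3271 and 4654 CPM in low-RNA barcodes, against 460.1, 461, 1653 and 2298 CPM in high-UMI barcodes. Its low-RNA value exceeded the high-UMI value within each library, while saline libraries exceeded AngII/PE libraries in both classes, so the classes overlapped across libraries (log2 ratio 0.40, SE 0.11, edgeR adjusted p = 0.0067, and 0.31 without the PBS saline library and 0.33 for members under 2500 UMIs, where it no longer passed). The other 6 that were higher spanned log2 0.45 to 0.69. They were the receptor phosphatase Ptprj (0.69), the calcium-regulated kinase Camk1d (0.64), the splicing regulator Mbnl1 (0.62), the transcription factors Foxp1 (0.60) and Runx1 (0.45), and the endosomal proton exchanger Slc9a9 (0.52).

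The 2 long genes that did not pass encode proteins used to name resident macrophages. Mrc1, the mannose receptor CD206, had 1122, 1225, 1564 and 1951 CPM in low-RNA barcodes, against 898, 826, 1236 and 1575 CPM in high-UMI barcodes, with a log2 ratio of -0.04 and an edgeR adjusted p of 0.74. F13a1, the A chain of coagulation factor XIII, had 958, 979, 1775 and 2684 CPM in low-RNA barcodes, against 809, 772, 1321 and 2057 CPM in high-UMI barcodes, with a log2 ratio of -0.07 and an edgeR adjusted p of 0.53. Both had a higher CPM in low-RNA barcodes in every library, and their log2 ratios turned to 0.39 and 0.35 with plain CPM and to 0.07 and 0.03 with RLE size factors.

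All 12 of the most abundant genes under 10 kb were lower in low-RNA barcodes. Lyz2, lysozyme (mm10, chromosome 10, 117277331 to 117282321), had 3641, 2465, 2125 and 2114 CPM in low-RNA barcodes, against 10304, 9565, 10305 and 9909.9 CPM in high-UMI barcodes. The highest low-RNA value was under the lowest high-UMI value (log2 ratio -2.41, SE 0.15, edgeR adjusted p = 3.6e-09). Tmsb4x, which sequesters actin monomers, had 5401, 3529.9, 2833 and 2692 CPM in low-RNA barcodes, against 14196, 12897, 11963 and 11558 CPM in high-UMI barcodes (log2 ratio -2.28, SE 0.15, edgeR adjusted p = 7.5e-09). Ftl1 and Fth1, the ferritin chains that store iron, had log2 ratios of -2.20 and -2.13, Actb -2.05, Tpt1 -2.04, Fau -1.99 and the protease inhibitor Cst3 -1.99. H2-Aa, an MHC class II chain, had 1568, 1293, 2253 and 2076 CPM in low-RNA barcodes, against 3153, 3783, 9198 and 7304 CPM in high-UMI barcodes (log2 ratio -2.02, SE 0.15, edgeR adjusted p = 2.1e-08). Cd74, its invariant chain, had a log2 ratio of -1.74, the MHC class I gene H2-D1 -1.41, and Apoe, the apolipoprotein that carries lipids out of macrophages, -1.35 (with DESeq2 -1.25 and an adjusted p of 0.11). H2-D1 has near-identical relatives, so its counts are uncertain.

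**Figure D3:**
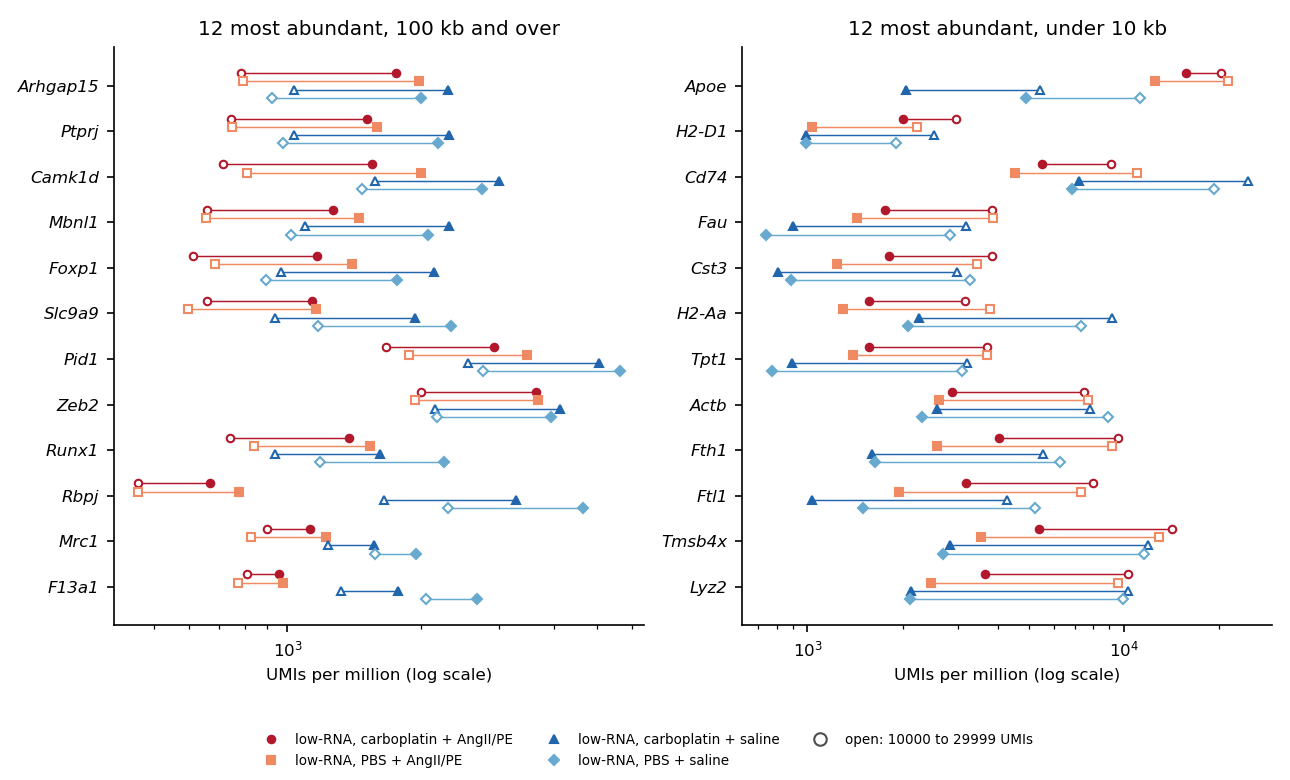
CPM (log scale) of the 12 most abundant protein-coding genes of 100 kb and over (left) and under 10 kb (right), with filled symbols for low-RNA and open symbols for high-UMI barcodes of the same library, joined by a line. Arhgap15 is at least 1753 CPM in low-RNA and at most 1036 CPM in high-UMI barcodes, and Lyz2 lies the other way round in all 4 libraries.

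Above an average of 50 CPM, 9 of the 12 genes with the lowest ratios spanned under 10 kb, and Folr2, Fxyd2 and Eef1a1 spanned 10 to 30 kb. Retnla, a secreted protein of alternatively activated macrophages, had 4.43, 0, 41.2 and 69.1 CPM in low-RNA barcodes, against 6.91, 6.91, 354 and 522 CPM in high-UMI barcodes. Under AngII/PE it did not exceed 6.91 CPM in either class, and the low-RNA value was the lower one in all 4 libraries (log2 ratio -3.27, SE 0.19, edgeR adjusted p = 2.2e-09). Sdf2l1, a part of an endoplasmic reticulum chaperone complex, was at -2.43, the calcium-binding protein S100a4 at -2.31, the sodium pump subunit Fxyd2 at -2.30 and the signal peptidase subunit Spcs1 at -2.27. The chemokine Pf4 had 639, 307, 324 and 567 CPM in low-RNA barcodes, against 1761, 1274, 1336 and 2164 CPM in high-UMI barcodes, and no low-RNA value reached the high-UMI range (log2 ratio -2.29, SE 0.11, edgeR adjusted p = 6.4e-10). Cd68, a lysosomal glycoprotein used to stain macrophages, had 210.4, 126, 72.5 and 83.2 CPM in low-RNA barcodes, against 507, 477, 318 and 354 CPM in high-UMI barcodes (log2 ratio -2.24, SE 0.11, edgeR adjusted p = 8.3e-10). Wfdc17 was at -2.22, the folate receptor Folr2 at -2.20 and the elongation factor Eef1a1 at -2.20, beside Lyz2 and Tmsb4x above.

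The highest ratios by the same rule were led by genes of matrix and muscle. Sparc, a matrix-binding glycoprotein, had 174, 182, 98.0 and 20.4 CPM in low-RNA barcodes, against 35.7, 34.3, 5.85 and 5.95 CPM in high-UMI barcodes (log2 ratio 2.19, SE 0.23, edgeR adjusted p = 9.1e-07). Within each library the low-RNA value was the higher one, while the PBS saline low-RNA value lay within the high-UMI range. Tpm1, tropomyosin, was at 1.53, but at -0.04 for low-RNA barcodes without a UMI of the 12 heart muscle genes. High-UMI barcodes in that setting could still hold a small share of such UMIs, so the classes were not cleared alike. Des, the intermediate filament desmin, was at 1.58, and at 0.29 (edgeR adjusted p = 0.285) in that setting. Sparc was at 2.60 there, and at 1.22 where 3 of the 15 macrophage markers were required. A further 8 were at 0.81 to 0.93 and spanned 87.0 kb or more. They include the actin-binding neurabin Ppp1r9a (0.93), the repressor Zeb1 (0.92), the receptor kinase Grk3 (0.88), Ehbp1 (0.87), the inositol trisphosphate receptor Itpr1 (0.85), Zfp950 (0.82) and P3h2 (0.81). The last of them, Aff3, was at 0.83, but at -0.36 where C1q was held to 20 per 10000 and at 0.15 (edgeR adjusted p = 0.417) with 3 macrophage markers.

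Malat1 was higher in low-RNA barcodes of every library. It had 33910.0, 35810.0, 41404 and 44720.0 CPM in low-RNA barcodes, against 12027, 13921, 20752 and 22144 CPM in high-UMI barcodes (mm10, chromosome 19, 5795690 to 5802672), or 3.39%, 3.58%, 4.14% and 4.47% of UMIs in low-RNA barcodes against 1.20%, 1.39%, 2.08% and 2.21% in high-UMI barcodes. The ratio of these shares was 2.82, 2.57, 2 and 2.02, and the classes did not overlap. The fit gave a log2 ratio of 0.79 (SE 0.17, edgeR adjusted p = 0.0011). The call rests on the PBS AngII/PE library as well, since without it the log2 ratio was 0.73 and the edgeR adjusted p 0.0504. At 1000 to under 2500 UMIs the ratio was 0.46 and the edgeR adjusted p 0.063. Malat1 spans 6983 bases, in a length class whose median log2 ratio was -0.69.

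Of 9 nuclear RNAs listed, 6 had enough UMIs for the test. Of these 4 were higher and 2 did not pass, beside 25.2% higher of all genes, and the median log2 ratio was 0.69, beside -0.03 for all genes. Kcnq1ot1, the antisense transcript of an imprinted cluster, had 97.0, 120.2, 211 and 222 CPM in low-RNA barcodes, against 51.0, 56.6, 82.1 and 88.7 CPM in high-UMI barcodes (log2 ratio 0.76, SE 0.09, edgeR adjusted p = 4.8e-06). Mir99ahg, a host transcript of microRNAs, was at 0.61. Meg3, an imprinted noncoding RNA, had 10.1, 17.6, 11.02 and 2.43 CPM in low-RNA barcodes, against 1.16, 1.57, 0.0790 and 0.955 CPM in high-UMI barcodes, a low level throughout (log2 ratio 3.02, SE 0.54, edgeR adjusted p = 0.00022). Its call was lost for members under 2500 UMIs (log2 ratio 1.40, edgeR adjusted p = 0.40) and where 3 macrophage markers were required (1.64, adjusted p = 0.13). Neat1, the scaffold of paraspeckles, had 416, 491, 697 and 749 CPM in low-RNA barcodes, against 303, 338, 407 and 489.7 CPM in high-UMI barcodes, a log2 ratio of 0.17 with an edgeR adjusted p of 0.093. Tug1 was at 0.02 (edgeR adjusted p = 0.90). With plain CPM all 6 passed as higher, as did 6236 of all 13781 genes. Snhg11 and Miat had no UMI in low-RNA barcodes of any library.

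Mitochondrial transcripts are limited by the rule and are given without a test. The pooled mt- share was 6.17%, 6.48%, 5.17% and 5.17% in low-RNA barcodes, against 2.84%, 3.11%, 3.81% and 2.99% in high-UMI barcodes, a ratio of 2.17, 2.09, 1.36 and 1.73 (mean 1.84, SD 0.374, n = 4). All 13 mt- genes were higher in low-RNA barcodes in each library, as in mt-Co1, a subunit of cytochrome oxidase, with 10637, 11517, 8214 and 8287 CPM in low-RNA barcodes against 4755, 5261, 6185 and 5051 CPM in high-UMI barcodes. Without the 10% limit the pooled share was 12.9%, 14.6%, 13% and 9.21% in low-RNA barcodes, and the mean ratio was 3.75. Long-gene transcripts and mt- transcripts did not climb together from barcode to barcode. Within the low-RNA barcodes of a library, Spearman's rho between the share in genes of 100 kb and over and the mt- share was -0.02, -0.13, -0.27 and -0.26, and between Malat1 and mt- share 0.15, 0.08, 0.15 and 0.15. Long-gene share and C1q per 10000 had rho of -0.53, -0.48, -0.40 and -0.39. These are descriptions over 776, 558, 575 and 681 barcodes whose shares add up to 1 total.

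The same contrast was made in endothelial barcodes of the same libraries, 494 of 1000 to 5000 UMIs and 548 of 10000 to under 30000 UMIs, chosen by Cdh5, Flt1, Kdr and Ptprb. The shallow ones numbered 49, 46, 192 and 207, with 156442, 137033, 507700 and 600021 UMIs in all, so the AngII/PE sums are small. The deep ones numbered 157, 139, 153 and 99. The long-gene ratio was 1.72, 1.81, 1.9 and 1.82 in macrophage barcodes, larger in each library than the 1.22, 1.40, 1.21 and 1.24 of endothelial barcodes. For ribosomal protein genes it was 0.45, 0.38, 0.29 and 0.28 in macrophage barcodes and 0.81, 0.60, 0.90 and 0.70 in endothelial barcodes. For Malat1 it was 2.82, 2.57, 2 and 2.02 in macrophage barcodes and 1.70, 1.64, 0.93 and 1.26 in endothelial barcodes, although the difference in the fit, 0.50, had an edgeR adjusted p of 0.20. The macrophage ratio of Malat1 was the larger one in each library. That fit blocked by library only and did not pair shallow with deep barcodes within each cell class. Its missed call is thus no evidence that the ratios were alike. Across 12125 genes, the log2 ratio was higher in macrophage than in endothelial barcodes for 450 (3.71%) and lower for 1138 (9.39%). By length, 671 of 2832 genes under 10 kb were lower and 62 higher, whereas of 321 genes of 300 kb and over 45 were higher. The median difference was -0.53 in the shortest class and 0.64 in the longest.

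Pf4 led the genes with a negative difference, at -4.17 (SE 0.22, edgeR adjusted p = 2.1e-08), and it was higher in shallow than in deep endothelial barcodes. The shallow ones had 198, 109, 118 and 220.0 CPM of Pf4, against 50.8, 23.6, 29.0 and 63.2 CPM in deep endothelial barcodes. The difference was -3.37 for Lyz2, -1.85 for Tmsb4x and -1.35 for Actb. Thinned to 1000 UMIs, Lyz2 had a UMI in 88.7%, 74.6%, 71.8% and 69.9% of low-RNA barcodes and in 55.1%, 37.0%, 41.7% and 44.0% of shallow endothelial barcodes. The share of free macrophage RNA in either class was not tested.

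Macrophage and subset markers were mostly lower in low-RNA barcodes. Of 15 macrophage markers 13 were lower and 1 higher, beside 32.8% lower and 25.2% higher of all genes and 54.0% lower of genes under 10 kb, with a median log2 ratio of -1.14 (-0.71 with plain CPM), beside -0.03 for all genes (0.39 with plain CPM). With plain CPM 9 of the 15 were lower and 3 higher, beside 2755 lower and 6236 higher of all 13781 genes. Cd68 and Pf4 were lowest, and the low-affinity Fc receptor Fcgr3 (-1.82), the cytoskeletal protein Aif1 (-1.82), the cathepsin Ctss (-1.54), the lipopolysaccharide co-receptor Cd14 (-1.45) and the sort gene Fcgr1, which encodes CD64 (-1.41), followed. Mertk, a receptor for dying cells that spans 104 kb, had 575, 659.9, 318 and 376 CPM in low-RNA barcodes, against 336, 344, 187 and 216 CPM in high-UMI barcodes and was the higher one (log2 ratio 0.40, SE 0.07, edgeR adjusted p = 0.00032), but at 0.20 (edgeR adjusted p = 0.25) for members under 2500 UMIs. Adgre1, which encodes F4/80 and spans 125 kb, had 943, 806, 713 and 716 CPM in low-RNA barcodes, against 849, 721, 609.7 and 577 CPM in high-UMI barcodes, higher in each library, yet was called lower at -0.21 and turned to 0.21 with plain CPM and 0.01 against barcodes of over 5000 and under 10000 UMIs. That call was lost without any 1 of 3 libraries, at -0.18, -0.21 and -0.24 without carboplatin AngII/PE, PBS AngII/PE and carboplatin saline.

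Among 12 resident-macrophage markers 10 were lower and 2 did not pass, F13a1 and Colec12, with a median of -0.83 (-0.41 with plain CPM). With plain CPM 9 were lower and 2 higher. Folr2 had 36.2, 19.8, 79.5 and 90.0 CPM in low-RNA barcodes, against 125, 64.9, 248 and 348 CPM in high-UMI barcodes (log2 ratio -2.20, SE 0.09, edgeR adjusted p = 6.3e-10). Lyve1, the hyaluronan receptor, was at -2.02, the carbonyl reductase Cbr2 at -1.86 and the complement receptor Vsig4 at -1.71. Timd4, a phosphatidylserine receptor of long-lived residents, had 0, 0.549, 6.96 and 86.1 CPM in low-RNA barcodes, against 0.332, 3.68, 6.88 and 102 CPM in high-UMI barcodes. Only the PBS saline library held it at an appreciable level in both classes, and without that library the call at -0.69 was lost (log2 -1.19).

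Of 10 genes of the Ccr2 and MHC class II list 9 were lower, with a median of -1.58 (-1.16 with plain CPM). With plain CPM 7 were lower and 1 higher. Cd52 was at -2.14, H2-DMa at -1.77 and H2-Eb1 at -1.66. Ccr2, the receptor for CCL2, had 298, 343, 247 and 124 CPM in low-RNA barcodes, against 255, 250.2, 359 and 185 CPM in high-UMI barcodes, higher in low-RNA barcodes of the AngII/PE libraries and lower in those of the saline libraries (log2 ratio -0.51, SE 0.13, edgeR adjusted p = 0.0035). That call was lost with plain CPM (-0.09, edgeR adjusted p = 0.62) and against barcodes of over 5000 and under 10000 UMIs (-0.08, adjusted p = 0.59). Ciita, the master activator of MHC class II genes, was the exception and spans 48.4 kb. It had 159, 249, 425 and 294 CPM in low-RNA barcodes, against 71.5, 89.1, 256 and 168 CPM in high-UMI barcodes, higher in each library (log2 ratio 0.61, SE 0.10, edgeR adjusted p = 7.7e-05, but 0.37 and an adjusted p of 0.061 for members under 2500 UMIs), while its target genes H2-Aa, H2-Ab1 and Cd74 were lower.

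All 12 lipid-associated markers were lower, beside 32.8% of all genes, with a median of -1.38, led by the tetraspanin Cd63 (-1.98), the lectin Lgals3 (-1.83), the lipid receptor Trem2 (-1.67) and osteopontin, Spp1 (-1.63). Of 10 inflammatory genes 9 were lower, with a median of -0.98, led by the chemokines Ccl7 (-1.74) and Ccl2 (-1.57), while Nlrp3 had a log2 ratio of -0.07 (edgeR adjusted p = 0.52). Of 10 interferon-induced genes 9 were lower, with a median of -0.86, led by Isg15 (-1.46). Of 7 genes chosen earlier on these libraries for AngII/PE macrophages 6 were lower, with a median of -1.59, led by Ccl6 (-1.99). Hpgds, a prostaglandin synthase, was at 0.15 (edgeR adjusted p = 0.097). That list is not independent evidence of a direction. The median span was 2.08 kb for the inflammatory and 5.72 kb for the AngII/PE list, and 54.0% of all genes under 10 kb were lower. These counts depend on the scaling. With plain CPM 10 lipid-associated genes were lower and 0 higher, and 7 inflammatory genes lower and 1 higher. Of the interferon-induced genes 5 were then lower and 1 higher (median -0.42), and of the AngII/PE list 6 and 1. Of all 13781 genes 2755 were lower and 6236 higher with plain CPM.

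**Figure D4:**
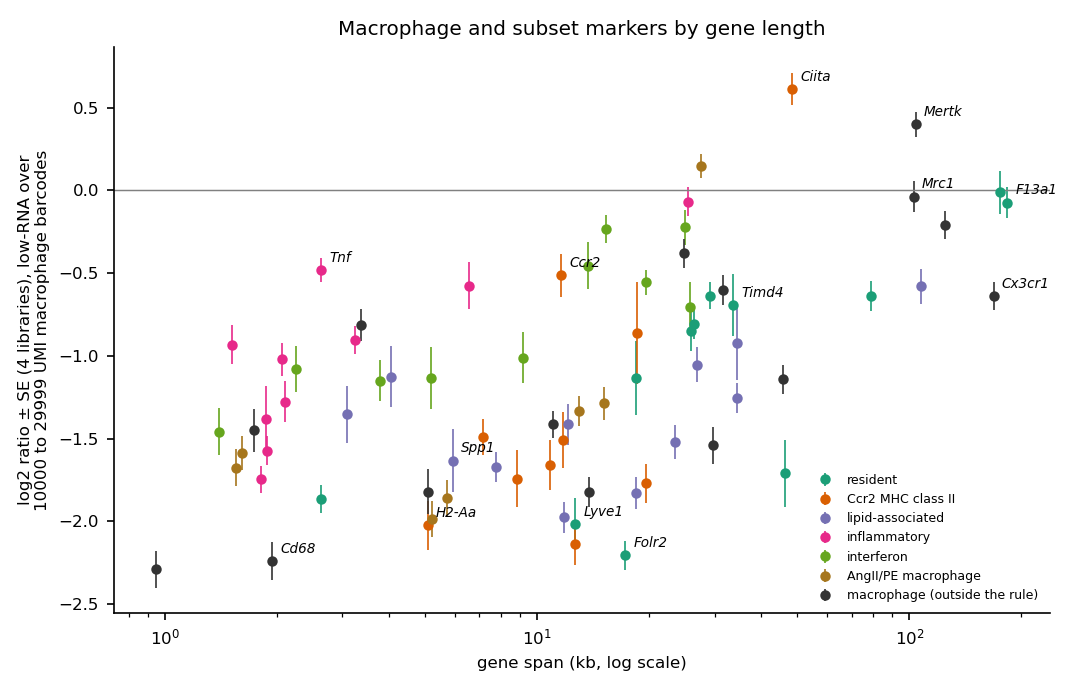
Log2 ratio of low-RNA over high-UMI barcodes (with SE over 4 libraries) against gene span in kb on a log scale, for macrophage and subset markers, coloured by list. Cd68, Pf4 and Lyve1 lie at -2.02 or below, and Ciita and Mertk are above 0.

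Shares of barcodes with a UMI were compared after thinning each barcode to 1000 UMIs, so that depth is equal and no low-RNA barcode is left out. Of 61 subset markers, 40 had a lower share in low-RNA barcodes in all 4 libraries and 2, Ciita and Usp18, a higher one. With C1q held to 20 per 10000, 30 had a lower share and 2 a higher one, whereas without thinning all 61 were lower. This count was not made over all genes, of which 32.8% were lower and 25.2% higher in the fit. Cd68 had a UMI in 16.1%, 11.3%, 5.57% and 8.52% of low-RNA barcodes, against 37.2%, 33.9%, 28% and 28.7% of high-UMI barcodes. Unthinned, those shares were 38.3%, 26.2%, 15.7% and 18.5%, against 97.4%, 96.3%, 96.6% and 95.5%. Endothelial barcodes of 1000 to 5000 UMIs, with median depths of 3071, 2840, 2398 and 2951 UMIs, had Cd68 in 4.08%, 2.17%, 3.12% and 0.966% of barcodes, below every low-RNA share.

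Mrc1 did not differ in 1 direction. It had a UMI in 51.8%, 52.3%, 59.5% and 69.2% of low-RNA barcodes, against 50.1%, 44.7%, 63% and 70.1% of high-UMI barcodes and 6.12%, 2.17%, 7.81% and 3.86% of shallow endothelial barcodes. The low-RNA share was the higher one under AngII/PE and the lower one under saline, and the exact 95% intervals of the classes met in every library but PBS AngII/PE. Ciita had a UMI in 13.4% (exact 95% interval 11.1 to 16), 18.1% (15 to 21.6), 30.4% (26.7 to 34.4) and 21.6% (18.6 to 24.9) of low-RNA barcodes. The high-UMI barcodes had 6.17% (5.37 to 7.05), 7.34% (6.23 to 8.58), 21.3% (19.2 to 23.5) and 15.9% (14.3 to 17.6), and no interval met that of the same library. Shallow endothelial barcodes had Ciita in at most 2.17%. Usp18 was at 2.96%, 2.33%, 2.78% and 2.50%, against 2.89%, 2.28%, 2.16% and 1.43%, inside or near the 1.93% to 4.35% of shallow endothelial barcodes. Whether that endothelial share is a background level was not tested. Timd4 had no UMI in the 776 and 558 thinned low-RNA barcodes under AngII/PE, where a count of 0 allows a share of barcodes with a UMI at this depth of up to 0.387% and 0.538%. Unthinned, 1 UMI was found in PBS AngII/PE. It was in 0.696% and 7.49% of low-RNA barcodes under saline, against 0.836% and 8.96% of high-UMI barcodes, so the class kept the library's order. Intervals and limits cover counting error only.

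Lists of cell state were mostly lower as well, beside 32.8% lower and 25.2% higher of all genes. All 15 abundant cytosolic genes were lower, with a median of -2.05 and a median span of 3.64 kb. The 12 secreted and lysosomal genes were all lower, with a median of -1.5, among them selenoprotein P, Selenop (-2.14). All 19 immediate-early and heat shock genes, which tissue digestion can induce, were called lower, with a median of -0.60 and led by Fos (-1.32). With plain CPM their median was -0.18, 9 were lower and 1 higher. Of 12 genes of apoptosis and p53, 6 were lower, 1 was higher and the median was -0.41, but 0.02 with plain CPM, where 4 were lower and 4 higher. Bax was at -1.64, Cdkn1a, a cell cycle inhibitor that p53 induces, at -1.11, and Bcl2, an inhibitor of apoptosis that spans 176 kb, at 0.55. Of 8 cycling genes 7 were lower, with a median of -1.13. With plain CPM 6 of them were lower and 0 higher. Of 92 ribosomal protein genes tested, many with near-identical pseudogenes, 84 were lower and 5 higher, with a median of -1.97.

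Markers of other cells were higher in low-RNA barcodes. All 12 heart muscle genes passed as higher, with a median of 1.96, as in Tnnt2, cardiac troponin T, with 316, 186, 176 and 139 CPM in low-RNA barcodes, against 40.6, 56.9, 28.6 and 31.0 CPM in high-UMI barcodes (log2 ratio 1.95, SE 0.15, edgeR adjusted p = 2.3e-08). Their summed level was 914, 916, 1070.1 and 826 CPM in low-RNA barcodes, against 149.7, 185, 202 and 211 CPM, and 34.8%, 42.7%, 40.2% and 40.4% of low-RNA barcodes held at least 1 such UMI, against 52.6%, 59.5%, 71.4% and 66.6% of the deeper high-UMI barcodes. Neutrophil genes summed to 725, 490.2, 518 and 174 CPM in low-RNA barcodes, against 97.8, 219, 41.9 and 118 CPM, with S100a9 at 2.62 and S100a8 at 2.67. Both calls were lost with C1q held to 20 per 10000, at 0.96 and 0.86 (edgeR adjusted p = 0.13 and 0.16), and with 3 macrophage markers required, at 1.19 and 1.09 (adjusted p = 0.086 and 0.090). In PBS saline low-RNA barcodes Nppa of the heart muscle list and Cxcr2 of the neutrophil list were at 0. Endothelial genes summed to 438, 369, 753 and 542 CPM, against 159, 144, 388 and 394 CPM, fibroblast genes to 521, 508, 645 and 266 CPM, against 399, 378, 190.4 and 214 CPM, mural cell genes to 70.4, 31.3, 187 and 70.1 CPM, against 23.1, 17.2, 14.5 and 8.31 CPM, and red cell genes to 67.2, 74.1, 146 and 29.2 CPM, against 12.3, 45.3, 10.9 and 6.49 CPM. The endothelial sum includes the exclusion genes Cdh5, Flt1, Kdr and Ptprb, and the fibroblast sum includes Col1a1. That limit is harder to meet at high depth, so the rule partly sets both sums. Outside the rule, 5 of 6 endothelial genes tested were higher and 1 lower. Of 7 fibroblast genes tested, 5 were higher and 1 lower, beside 25.2% higher of all genes. B cell genes did not follow, since 3 of 5 tested were lower, and the 2 T cell genes tested did not pass. The part of these other cells' transcripts in the results was not tested. Hemoglobin pairs such as Hba-a1 and Hba-a2 are near-identical copies, so single values are uncertain.

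The distance between long and short genes was computed again with other members. Low-RNA barcodes that held heart muscle transcripts were left out, and high-UMI barcodes were limited to a small share of them. The distance between long and short genes was then 1.25, and 2883 genes were higher and 4118 lower. With at least 3 of the 15 macrophage markers required it was 1.23, and with C1q held to 20 per 10000 it was 1.04. Where high-UMI barcodes were thinned to 3000 UMIs before the rule was applied it was 1.38.

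Contrasts between treatments within the low-RNA barcodes used 6850 genes at 20 CPM or more on average, and counted those 2-fold apart, with no test. For carboplatin over PBS under saline, 69 genes were higher (1.01%) and 51 lower (0.745%) in low-RNA barcodes, against 20 and 44 in high-UMI barcodes. With C1q held to 20 per 10000 the low-RNA counts were 128 and 108, and at a minimum of 50 CPM they were 15 and 13. For carboplatin over PBS under AngII/PE, 28 were higher (0.409%) and 47 lower (0.686%), against 4 and 44. For AngII/PE over saline after PBS, 340 were higher (4.96%) and 258 lower (3.77%), against 184 and 236. For AngII/PE over saline after carboplatin, 447 were higher (6.53%) and 307 lower (4.48%), against 125 and 212. Fewer UMIs lie behind the low-RNA sums (1724115 to 2485634 per library) than behind the high-UMI sums (25309228 to 54260848), so counting error adds more to the low-RNA counts. At a minimum of 50 CPM the low-RNA counts of the other 3 contrasts were lower as well, at 9 and 16, 155 and 144, and 211 and 167.

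After carboplatin under saline, 8 of 12 resident markers were lower in low-RNA barcodes by intervals that exclude 1, and 12 of 12 in high-UMI barcodes. More UMIs lie behind the high-UMI sums, so their intervals are narrower and exclude 1 more easily. The share of all genes with such intervals is not given here, so these counts have no background. Timd4 had 6.96 CPM in carboplatin saline and 86.1 CPM in PBS saline low-RNA barcodes, a ratio of 0.0808 (exact 95% interval 0.041 to 0.145), beside 0.0674 in high-UMI barcodes. Cd163, a hemoglobin scavenger receptor, had 27.3 and 291 CPM in the same 2 libraries, a ratio of 0.0937 (0.068 to 0.126), beside 0.130 in high-UMI barcodes. Colec12, a scavenger receptor, had a ratio of 0.173 (0.134 to 0.221), beside 0.107. These 3 receptors were far lower after carboplatin in both classes. Apoe had 2047 and 4909 CPM, a ratio of 0.417 (0.401 to 0.433), beside 0.483. Ccr2 ran the other way with 247 and 124 CPM, a ratio of 2 (1.71 to 2.34), beside 1.94. Lyve1 had a ratio of 0.894 (0.720 to 1.11) in low-RNA barcodes, beside 0.548 (0.530 to 0.568) in high-UMI barcodes, so these intervals do not meet. The 12 resident markers had a median log2 ratio of -0.71, beside -0.96 in high-UMI barcodes and 0.02 for all genes in low-RNA barcodes.

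AngII/PE and saline libraries differed in markers of both classes. The libraries also differed in sex-linked transcripts. In high-UMI barcodes Xist, made in female cells, had 284, 191, 397 and 321 CPM. The Y-linked genes Ddx3y, Kdm5d, Eif2s3y and Uty together had 110, 156, 106 and 85.2 CPM there. The part of the pools' sex mix in these and the carboplatin contrasts was not tested. After PBS, the 12 resident markers were all lower under AngII/PE than under saline, by intervals that exclude 1. Their median log2 ratio was -2.21 in low-RNA and -2.02 in high-UMI barcodes, beside 0.05 and 0.004 over all genes compared. No share of all genes with such intervals is given. F13a1 had a ratio of 0.365 (0.346 to 0.385), beside 0.376 in high-UMI barcodes. Trem2 had 221 CPM under AngII/PE and 54.0 CPM under saline in low-RNA barcodes, a ratio of 4.09 (3.30 to 5.09), beside 4.15. Ms4a7, a membrane protein of macrophages, had a ratio of 4.00 (3.58 to 4.49), beside 5.29. These 3 genes lay on the same side of 1 in both classes. F13a1 and Trem2 were close in size, while the Ms4a7 interval in high-UMI barcodes (5.18 to 5.41) did not meet the low-RNA one. Ccr2 had a ratio of 2.77 (2.39 to 3.22) in low-RNA barcodes, beside 1.35 (1.31 to 1.40) in high-UMI barcodes. The cytokine Il1b had 1.48 (1.30 to 1.68), beside 0.755 (0.734 to 0.776), so the classes lay on opposite sides of 1.

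After carboplatin the gap between the classes was wider for MHC class II genes. H2-Aa had 1568 CPM under AngII/PE and 2253 CPM under saline in low-RNA barcodes, a ratio of 0.696 (0.666 to 0.728), beside 0.343 (0.341 to 0.345) in high-UMI barcodes. The 10 genes of that list had a median log2 ratio of -0.42 in low-RNA and -1.35 in high-UMI barcodes. Apoe had 15767 and 2047 CPM, a ratio of 7.70 (7.44 to 7.98), beside 3.71 (3.69 to 3.73). Ctsd, a lysosomal protease, had a ratio of 13.3 (11.1 to 16.1), beside 6.38 (6.21 to 6.56). Both were higher under AngII/PE in both classes, and the low-RNA intervals lay above the high-UMI ones. Spp1 had 581 UMIs under AngII/PE and 7 under saline, a ratio of 57.6 (27.8 to 144), beside 9.65 (9.03 to 10.3). Malat1 had a ratio of 0.819 (0.811 to 0.827), beside 0.580 (0.577 to 0.582). The part of free RNA of the same library in these ratios was not tested.

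Carboplatin over PBS under AngII/PE gave ratios on opposite sides of 1 in the classes for some genes. H2-Aa had 1.21 (1.15 to 1.28) in low-RNA barcodes, beside 0.833 (0.827 to 0.839) in high-UMI barcodes. Cd74 had 1.22 (1.19 to 1.25), beside 0.829 (0.825 to 0.832). Both genes of antigen presentation were above 1 in low-RNA and below 1 in high-UMI barcodes. Spp1 had 234 and 98.8 CPM in low-RNA barcodes, a ratio of 2.37 (2 to 2.81), beside 1.24. Isg15, an interferon-induced modifier, had a ratio of 2.92 (2.09 to 4.14), beside 1.41 (1.34 to 1.48). Folr2 had a ratio of 1.83 (1.23 to 2.78), beside 1.93. Of 11 resident markers with 10 or more low-RNA UMIs, intervals lay above 1 for 3 (Folr2, Gas6 and Cbr2) and below 1 for 0 in low-RNA barcodes, and above 1 for 7 and below 1 for 4 in high-UMI barcodes. In those 4, Vsig4 had a ratio of 1.22 (0.402 to 4.09) in low-RNA barcodes, beside 0.298 in high-UMI barcodes. Cd163 had 0.916 (0.635 to 1.33), beside 0.5. Colec12 had 0.617 (0.373 to 1.01), beside 0.511, and Igf1 had 0.928 (0.796 to 1.08), beside 0.916. Timd4 had 0 and 1 UMIs in low-RNA barcodes, too few for a ratio, beside 0.0901 in high-UMI barcodes. Each of these ratios compares 2 libraries, and whether the classes' ratios differ was not tested. Intervals are wider in low-RNA barcodes, and the counts of intervals above or below 1 have no share of all genes beside them.

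**Figure D5:**
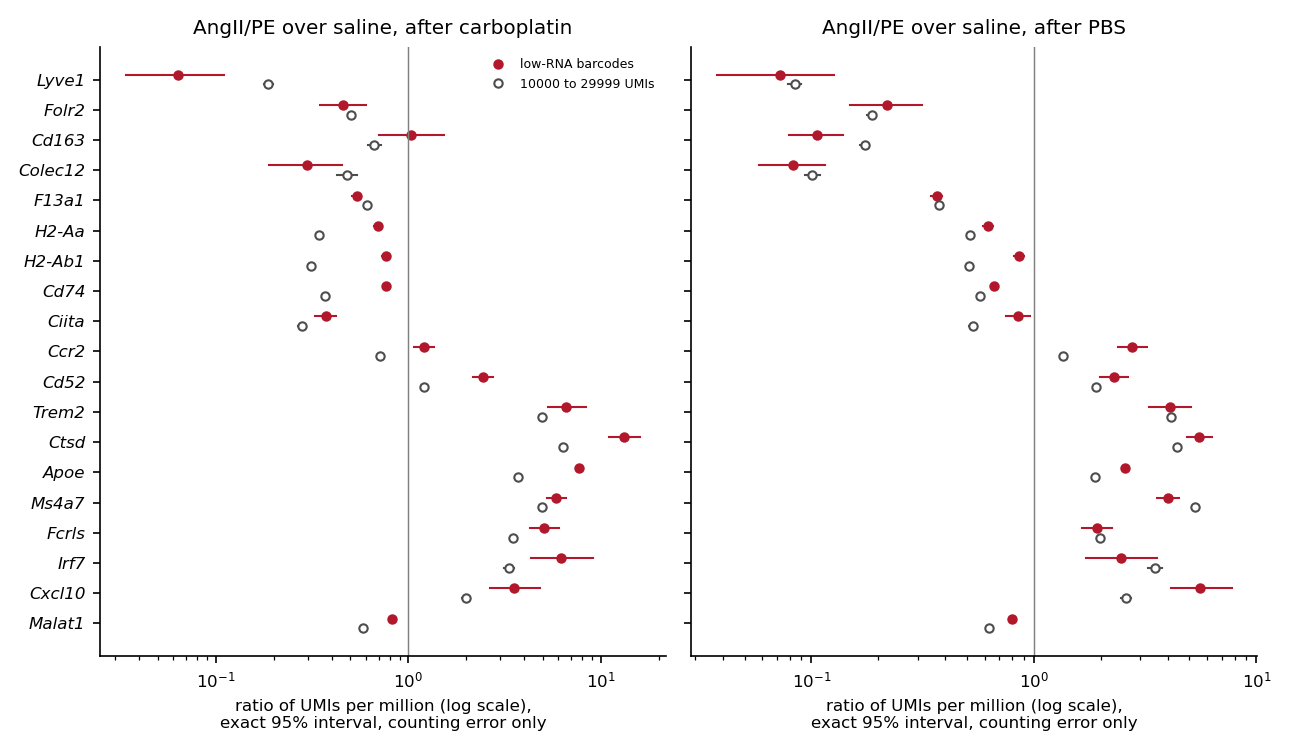
Ratio of CPM, AngII/PE over saline (log scale), after carboplatin (left) and after PBS (right), for 19 genes in low-RNA barcodes (filled) and high-UMI barcodes (open), with exact 95% intervals for counting error. Resident markers such as Lyve1 lie left of 1 and Trem2, Ctsd and Apoe right of 1 in both classes, while H2-Aa after carboplatin is 0.696 in low-RNA and 0.343 in high-UMI barcodes.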

How the data were processed

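Droplet 3' libraries (kit version 3.1, per the labels' protocols) gave the deposited files, which hold whole-number UMI counts per gene and barcode without normalisation. They were made with Cell Ranger 7.1.0 per the file headers, although the labels' protocols name version 3, on mm10; no source used here states whether introns were counted. The authors worked in Seurat (3.2.3 in the labels' protocols, 4 in the submitters' processing notes). Gene spans came from GENCODE for 32158 of 32285 gene IDs.

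Counts were summed per library and class. edgeR 4.0.16 (R 4.3.3; filterByExpr, TMM, glmQLFit and glmQLFTest, library as block, Benjamini-Hochberg over all 13781 genes) compared the classes, and an interaction term compared them with endothelial barcodes. The interaction fit also used the library as its only block, without pairing shallow and deep barcodes within each cell class. 22 genes of the rule got no test. The block was used because both classes of a library come from the same 5 pooled mice, and their same-library deviations correlated at 0.63, 0.45, 0.42 and 0.62. Low-RNA deviations also correlated with high-UMI ones of the other library under the same pump, at 0.44, 0.43, 0.29 and 0.41. The correlation is thus not particular to the same mice. Alternatives were DESeq2 1.42.0, RLE and plain CPM scaling, no block, no filter, each library left out, and other limits for members and reference; plain CPM, the macrophage marker and heart muscle limits, and the sums without mt-, Malat1 and C1q genes were added after seeing the data. Scripts were tested on simulated counts.

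Genes are named by rule: the 12 highest and 12 lowest log2 ratios at an adjusted p under 0.05 with 1 direction in 4 libraries and a mean of at least 50 CPM, the 12 most abundant protein-coding genes of 100 kb and over and under 10 kb, the 4 largest changes of each list and all members of lists of 8 or fewer, and the 5 highest and lowest interaction genes. Gene models, sex-linked, ribosomal and mt- genes and markers of other cells were not eligible, and 1 of the 12 highest is not reported here. Others, such as Ccr2, Ciita, Mertk, Adgre1, Timd4 and the genes of the treatment contrasts, were chosen from the lists after their values were seen. Lyz2, Tmsb4x, Actb, Malat1, Neat1, Zeb2, Foxp1 and Rbpj were added to the interaction genes by choice. The members and lists were chosen with earlier results of these data known. Shares carry exact Clopper-Pearson and ratios exact conditional binomial 95% intervals, for counting error only; 3 counts is the limit behind a count of 0.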

Additional observations from a re-analysis of the deposited data

Results flagged for a closer look

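A log2 ratio here is of barcodes of 1000 to 5000 UMIs over barcodes of 10000 to under 30000 UMIs. A gene is given when that ratio differed between macrophage and endothelial barcodes by edgeR's interaction test. Candidates were the 5 highest and 5 lowest differences past the threshold, and genes added by choice, among them Lyz2, Tmsb4x and Actb. The other added genes, Malat1, Neat1, Zeb2, Foxp1 and Rbpj, did not pass, at differences of 0.50, -0.02, 0.55, 0.46 and 0.84. The fit did not pair shallow with deep barcodes within each cell class, so these missed calls do not show equal ratios. Sparc differed by 3.12 and Aff3 by 3.01, both higher in low-RNA macrophage barcodes and, in the fit, lower in shallow than in deep endothelial barcodes. The shallow endothelial sums held 6 Aff3 UMIs in all, with 14.6 CPM against 5.15 CPM in deep ones in PBS AngII/PE, so that library ran the other way, and the macrophage ratio of Aff3 turned to -0.36 with C1q held to 20 per 10000. The difference was -4.17 for Pf4, -3.84 for Fxyd2, -3.63 for Wfdc17, -3.59 for Ccl8, -3.50 for Folr2 and -3.37 for Lyz2. Those 6 genes were lower in low-RNA macrophage barcodes and, in the fit, higher in shallow than in deep endothelial barcodes, and Pf4, Wfdc17 and Lyz2 were so in each library. Folr2 and Fxyd2 had no UMI in shallow endothelial barcodes under AngII/PE, nor Ccl8 in PBS AngII/PE, and the shallow sums held 16 UMIs of Fxyd2, 18 of Ccl8 and 26 of Folr2. The difference was -1.85 for Tmsb4x and -1.35 for Actb, lower in shallow barcodes of both cell classes. Cass4, Fmn1 and Cacna1d also passed, but they had no UMI in the endothelial sums of 1000 to 5000 UMIs, where a count of 0 allows up to 2.14 CPM, so no fold is given for them.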

How the results depend on the processing

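The 4 pooled libraries limit the tests, and 1724115 to 2485634 UMIs per library limit the low-RNA sums. Higher and lower counts were 6236 and 2755 with plain CPM, 2068 and 2596 against barcodes of over 5000 and under 10000 UMIs, and 1622 and 2992 for members under 2500 UMIs. The pairing of both classes within a library mattered: with no replicate block 1766 genes were higher and the Malat1 ratio was 0.76 (edgeR adjusted p = 0.0639). Malat1 was 0.46 under 2500 UMIs, and 0.71 to 0.85 with each library left out in turn. Against barcodes of over 5000 and under 10000 UMIs the distance between long and short genes was 0.80 and the mt- ratio 1.28; without the mt- limit that ratio was 3.75. Leaving out each library gave 213 to 381 higher and 469 to 918 lower interaction calls, with the fewest without carboplatin saline (213 and 469) and then PBS saline (299 and 690). The member share was 12%, 10.03%, 8.18% and 9.21% at C1q of 20 per 10000, 12.6%, 12.5%, 14% and 14.7% with no exclusion gene allowed, 4.37%, 4.08%, 7.52% and 7.68% at an mt- limit of 5%, and 25.8%, 31.8%, 24.6% and 21.1% without one; the first and last of these put AngII/PE above saline, the reverse of the main order. Without thinning, 61 subset markers were lower and 0 higher in share. For carboplatin over PBS under saline, C1q at 20 per 10000 gave 128 higher and 108 lower genes. At a minimum of 50 CPM the treatment counts, higher and lower, were 15 and 13 for that contrast, 9 and 16 for carboplatin over PBS under AngII/PE, 155 and 144 for AngII/PE over saline after PBS, and 211 and 167 after carboplatin.

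Directions turned for 7 genes. Mrc1 was at 0.0652 with RLE size factors, 0.0650 with DESeq2, 0.386 with plain CPM, 0.0472 at 2500 to 5000 UMIs, 0.0845 at C1q of 20, 0.00194 with no exclusion gene, 0.0869 with the reference thinned and 0.0603 with 3 macrophage markers. F13a1 was at 0.0297 with RLE size factors, 0.0301 with DESeq2, 0.35 with plain CPM, 0.0866 with the reference thinned and 0.0219 with 3 markers. Adgre1 was at 0.21 with plain CPM and 0.0143, and Gm42418 at -0.0774, against barcodes of over 5000 and under 10000 UMIs. Neat1 was at -0.00214 without the low-count filter, Aff3 at -0.36 at C1q of 20 and Tpm1 at -0.0374 for low-RNA barcodes without heart muscle transcripts. Of all values recomputed, 1920 kept direction and call, 76 lost the call (36 of the named genes under no replicate block), 10 gained it and 19 turned; the cause was not tested. No paired analysis was possible for treatment contrasts because each group has 1 library.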

Other observations

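Xist, the noncoding RNA that coats the inactive X chromosome in nuclei of female cells, had 659, 508, 1008 and 593 CPM in low-RNA barcodes, against 284, 191, 397 and 321 CPM in high-UMI barcodes (mice of both sexes were pooled; log2 ratio 0.79, SE 0.09, edgeR adjusted p = 2.2e-06). No low-RNA value fell within the high-UMI range. The Y-linked genes Ddx3y, Kdm5d, Eif2s3y and Uty together had 185, 245, 157 and 160.1 CPM in low-RNA barcodes, against 110.0, 156, 106 and 85.2 CPM in high-UMI barcodes, so both sexes' transcripts took a larger share in low-RNA barcodes. Xist and the Y-linked genes were chosen after their values were seen. In both classes PBS AngII/PE had the lowest Xist and the highest Y-linked level of the 4 libraries. The part of the pools' sex mix in the treatment contrasts was not tested.

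Of 6 dendritic cell genes tested 2 were higher and 0 lower, beside 25.2% higher and 32.8% lower of all genes. Zbtb46, a transcription factor of classical dendritic cells, had 8.85, 13.7, 25.5 and 25.8 CPM in low-RNA barcodes, against 2.71, 4.55, 4.54 and 12.1 CPM in high-UMI barcodes (log2 ratio 1.27, SE 0.22, edgeR adjusted p = 0.00018), and Flt3 was at 0.65. Cd209a, Clec9a, Itgae and Cd24a did not pass. Monocyte lists were mixed, with 3 of 6 classical monocyte genes lower and none higher, among them Ly6c2 (-3.16), the gene of the marker the sort kept low. Of 7 non-classical monocyte genes 2 were lower and 1 higher. These small counts are to be read beside the same shares of all genes.

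The gene model Gm42418 had 8198, 17863, 16953 and 13749 CPM in low-RNA barcodes, against 1821, 3814, 14926 and 10667 CPM in high-UMI barcodes, far apart under AngII/PE and close under saline (log2 ratio 0.81, edgeR adjusted p = 0.026). Without carboplatin AngII/PE it was 0.49 and without PBS AngII/PE 0.46, and neither passed. Its cause was not tested.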
